A study of Homo sapiens with 8 samples.

Results

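The genes described here are 44 human genes of the cytosolic and mitochondrial protein-folding machinery, taken by symbol from the 25192 genes in the deposited tables. All 44 were found. They were read in 8 libraries of messenger RNA, 2 in each of 4 groups: HT29 and SW480 cells, each with a control siRNA (siCon) or an siRNA against PRDX2 (siPrdx2), the gene of the peroxidase peroxiredoxin II (PrxII). HT29 and SW480 are human colorectal cancer cell lines that carry truncated APC. RNA was taken 36 h after transfection. HT29 cells were grown in McCoy's 5A medium and SW480 cells in RPMI1840, both with fetal bovine serum. The sources used here do not say that the lines were prepared or sequenced together. Line, medium and preparation therefore cannot be told apart in any comparison between the lines. The study used different siRNAs against PrxII, and the sources used here do not say which was sequenced. The libraries of a group are called duplicates without a statement that they came from separate transfections, so the p-values measure the spread between these libraries, which may be technical.

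Chaperones bind proteins that are not yet folded or have lost their fold. HSP70 proteins hold short hydrophobic stretches in cycles of ATP hydrolysis. J-domain proteins (the DNAJ genes) bring clients to HSP70 and start that hydrolysis, and the HSP110, BAG and HSPBP1 proteins release the bound nucleotide. HSP90 takes over many kinases and receptors late in their folding with the help of co-chaperones, the ring-shaped TRiC/CCT chaperonin folds actin and tubulin, and HSPA9, HSPD1 and HSPE1 fold proteins that were imported into mitochondria. Small heat shock proteins such as HSPB1 hold unfolded proteins without ATP. Heat, oxidants and other stresses that unfold proteins activate HSF1, the transcription factor of the heat shock response, which binds heat shock elements in the promoters of many of these genes. Peroxiredoxins such as PrxII remove hydrogen peroxide, itself an oxidant.

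Heat shock elements are alternating units of GAA and TTC. They were searched on both strands as GAANNTTCNNGAA (reverse TTCNNGAANNTTC) in the RefSeq promoter windows of GRCh38.p14, from 250 bases before to 50 bases after each transcript start. Of the 44 genes, 40 were in that table. The exact element was in a window of 7 of these 40 genes (17.5%), against 166 of all 27305 genes in the table (0.608%). With 1 of the 9 fixed letters changed at most, it was in 19 of the 40 (47.5%) against 7.60% of all genes. The exact matches lay before the start in 6 of the 7 genes. In DNAJA1 the match, gaactttccagaa, began 3 bases after the start. The other 6 genes are shown because their windows hold the exact element, and they include the main HSP70, HSP90 and HSP60 genes of these cells. Capitals mark the matches, which overlap in CHORDC1 and HSPD1. A further exact match in the HSPA8 window, gaaagttccagaa, began 230 bases before the start and lies outside the stretch shown. The coordinates are of GRCh38.p14 and the letters run 5′ to 3′ along the gene.
HSPA8, chr11:123062172-123062201, minus strand: ggcgggccccTTCTGGAAGGTTCtaagata
HSP90AA1, chr14:102087110-102087139, minus strand: agggttcTTCCGGAAGGTTCgggaggcttc
HSP90AB1, chr6:44247771-44247800, plus strand: gagcaggTTCTGGAAGATTCatgggctcct
HSP90AB1, chr6:44247823-44247849, plus strand: tgagattgTTCTGGAAGCTTCtggatt
CHORDC1, chr11:90223084-90223113, minus strand: accgGAAAATTCGCGAAGGTTCCTGAAacg
HSPD1, chr2:197500063-197500088, minus strand: attTTCTGGAAAGTTCTGGAAccgag
DNAJB6, chr7:157336864-157336893, plus strand: aagagccgaGAACCTTCGCGAAggtggggc

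The stress-inducible HSP70 genes HSPA1A and HSPA1B, the small heat shock gene HSPB1 and the HSP40 gene DNAJB1 held the element with 1 fixed letter changed. They are shown because HSPA1A, HSPA1B and HSPB1 fell and DNAJB1 rose in HT29 cells, so they were picked by their values. The element with 1 letter changed was also in PTGES3, which fell in HT29, and in HSPA9, which rose. DNAJB4, HSPA4L, CCT5, STIP1, AHSA1 and DNAJA4 held it as well and did not pass the test in HT29 given below. A match describes the letters in these windows only, and no binding was measured here. The units in HSPA1A and HSPA1B are the same 13 letters.
HSPA1A, chr6:31815429-31815458, plus strand: aaaccctgGAATATTCCCGACctggcagcc
HSPA1B, chr6:31827625-31827654, plus strand: aacccctgGAATATTCCCGACctggcagcc
HSPB1, chr7:76302483-76302512, plus strand: taacgagaGAAGGTTCCAGATgagggctga
DNAJB1, chr19:14518453-14518482, minus strand: gcggggcgGAAGGTTCTGGAGggggctggc

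Each library held 8857442 to 10164137 expected counts. Levels are given in CPM, which are counts relative to the library size as edgeR scales it within each cell line, and 3 counts made up 0.295 to 0.339 CPM. PRDX2 (GRCh37, chromosome 19, 12907634 to 12912614, minus strand) was at 148 and 154 CPM in the siCon libraries and 82.4 and 83.2 CPM in the siPrdx2 libraries of HT29 cells. The log2 fold change, given here and below ± its standard error, was -0.87 ± 0.0485 (edgeR quasi-likelihood test, Benjamini-Hochberg adjusted p = 1.15e-09). In SW480 cells it was at 209 and 246 CPM in the siCon libraries and 69.5 and 70.7 CPM in the siPrdx2 libraries, a log2 fold change of -1.70 ± 0.121 (edgeR adjusted p = 0.000618), and the difference between the lines was 0.84 ± 0.123 (edgeR adjusted p = 0.0128). The epithelial genes EPCAM, KRT8, KRT18 and KRT19 were at 340.2 TPM (a share of transcripts, which takes their length into account) or more in all 8 libraries. The epithelial genes KRT20 and CDH1 were at 546 TPM and 253 TPM or more in HT29 and at no more than 1.34 TPM and 14.7 TPM in SW480, whereas the mesenchymal gene VIM was at 620.2 to 794 TPM in SW480 and at no more than 0.56 TPM in HT29. The leukocyte gene PTPRC and the mesenchymal gene DCN were listed at 0 in every library. Some other genes of these kinds were not. The leukocyte genes CD68 and CD14 were at 12.6 TPM and 2.94 TPM or more in all 8 libraries. The mesenchymal gene COL1A1 reached 1.94 TPM in HT29 and 9.33 TPM in SW480. The epithelial gene VIL1 was lower in SW480 (42.65 to 50.81 TPM) than in HT29 (126 TPM or more). The epithelial gene CDX2 was higher in SW480 (18.8 TPM or more) than in HT29 (8.23 to 13.67 TPM). The duplicates differed by 1.43, 1.71 and 2.13 chi-square units per degree of freedom in HT29 siCon, HT29 siPrdx2 and SW480 siPrdx2, and by 11.2 in SW480 siCon. There the difference between duplicates followed transcript GC content (Spearman rho 0.73 across genes, which are not independent replicates).

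Before any comparison, the levels of the 44 genes show which chaperone messenger RNAs were most abundant in these cells. Their TPM summed to 11455 and 11291 in the HT29 siCon libraries and to 20176 and 17849 in the SW480 siCon libraries, or between 1.13% and 2.02% of all TPM. In HT29 siCon the constitutive HSP70 gene HSPA8 stood first at 1633 ± 34.8 TPM (SD, n = 2), followed by HSP90AB1, the constitutive HSP90, at 1292 ± 4.31, the mitochondrial chaperonin HSPD1 at 919 ± 9.53, HSP90AA1, the inducible HSP90, at 587 ± 8.97 and the HSP90 co-chaperone PTGES3 at 498 ± 1.86. Each of these differed from its neighbour by more than their SDs. In SW480 siCon the order was HSP90AA1 at 3299 ± 535 TPM (SD, n = 2), HSPA8 at 2693 ± 189, HSPD1 at 1511 ± 255, HSP90AB1 at 1377 ± 127 and HSPE1 at 949 ± 35.2. There, HSPD1 and HSP90AB1 differed by less than the SD of HSPD1. The testis-rich HSP70 gene HSPA2 and the HSP70 release factor BAG4 were the lowest in HT29, at 2.32 ± 0.431 and 5.16 ± 0.134 TPM.

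In HT29 cells, the messenger RNAs of 3 cytosolic HSP70 genes, of the small heat shock gene HSPB1 and of the J-domain gene DNAJA1 were lower with siPrdx2 than with siCon by between 21.9% and 28.7%. Smaller falls were found in HSP90AA1, HSP90AB1 and co-chaperones of HSP90, 2 TRiC/CCT subunits and the mitochondrial HSPE1. DNAJB1 and the mitochondrial genes HSPA9 and DNAJA3 rose. All 44 genes passed the filter of at least 10 counts in at least 2 libraries, and 15 (34.1%) had an edgeR adjusted p under 0.05, 3 higher and 12 lower, against 17.6% of the 12961 genes tested (7.76% higher and 9.82% lower). These shares were not matched for expression level, and at high counts small changes passed, such as -3.27% in HSP90AB1. Of the 44, 11 lay above 0 and 33 below 0, with a median log2 fold change of -0.035 against -0.00048 over all genes. On the log2(TPM + 1) scale, however, 27 lay above 0 and 17 below 0. Values on that scale lay higher by a similar amount in genes of either direction. Examples are HSPA8 (-0.47 in edgeR and -0.40 on that scale), HSPH1 (0.0075 and 0.072) and HSPA9 (0.19 and 0.26). At an unadjusted p under 0.05 the number was 18. The share of all genes at that p is not given here, so this number cannot be set beside the 17.6%.

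**Figure D1:**
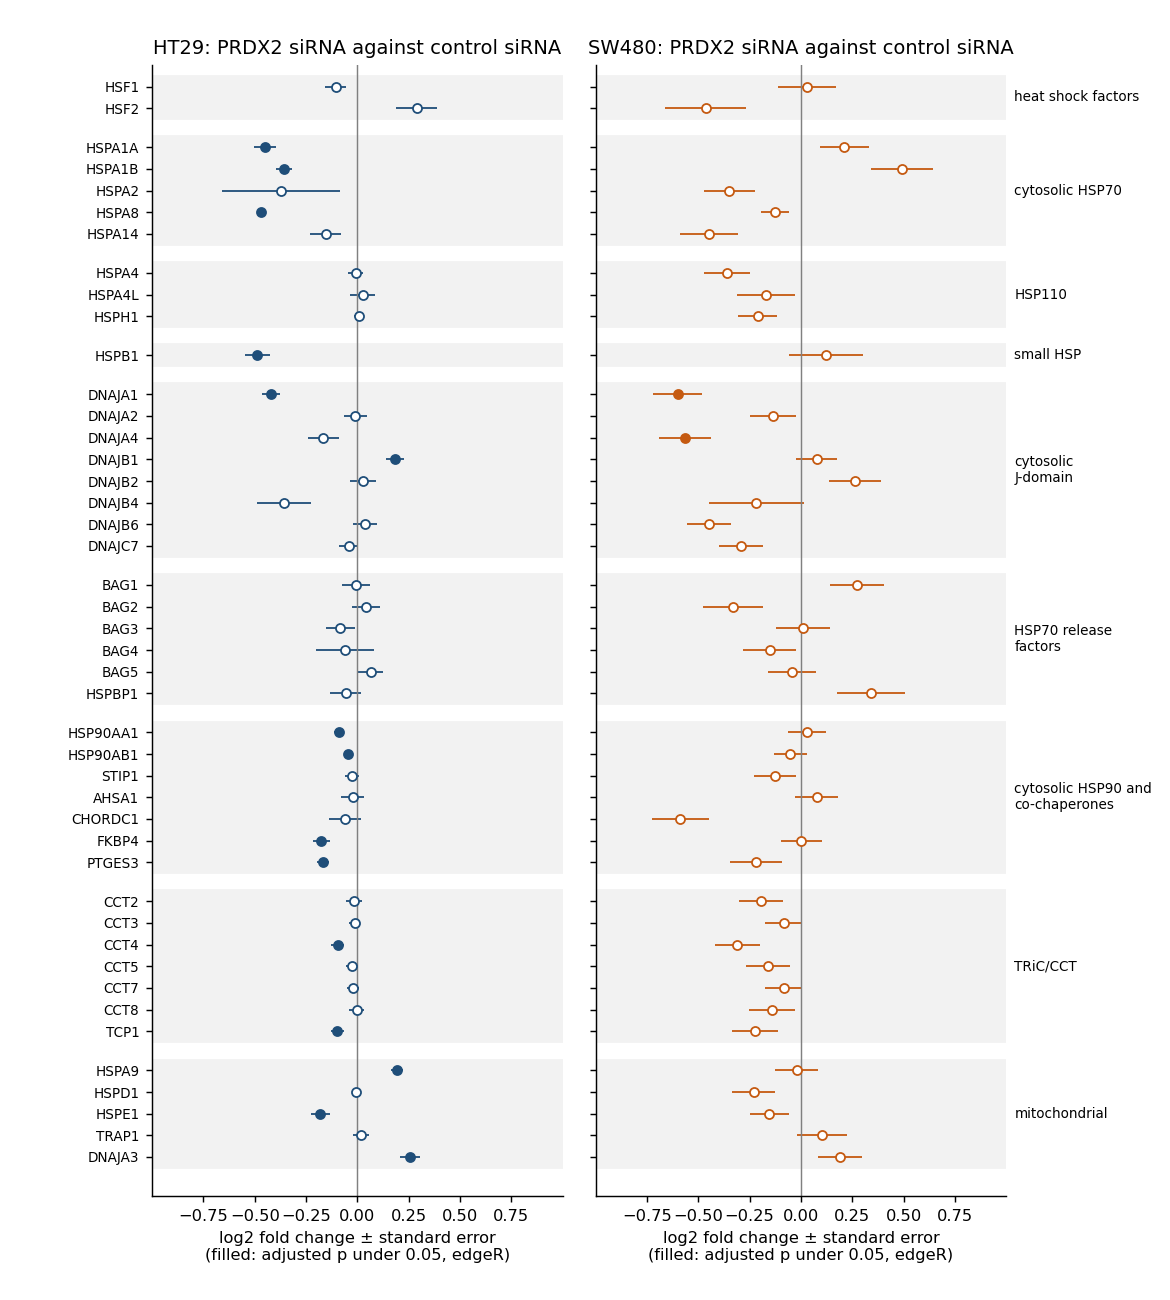
Log2 fold change (siPrdx2 over siCon, x axis) of the 44 genes by role in HT29 (left) and SW480 (right), with bars for the standard error and filled points for an edgeR adjusted p under 0.05. In HT29 15 points are filled and 12 of them lie left of 0, HSP90AB1 among them, which lay at 0.016 on the TPM scale. In SW480 the bars are longer and only DNAJA1 and DNAJA4 are filled.

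Of the 5 cytosolic HSP70 genes, 3 fell. HSPA8 (GRCh37, chromosome 11, 122928197 to 122933938, minus strand), which folds new proteins in unstressed cells, was at 1759.5 and 1709 CPM in the siCon libraries and 1263 and 1243 CPM in the siPrdx2 libraries. The groups lay far apart relative to their duplicates, and the log2 fold change was -0.47 ± 0.0180 (edgeR adjusted p = 1.13e-11), a fall of 27.7%. HSPA1A (chromosome 6, 31783320 to 31785723, plus strand), the stress-inducible HSP70, was at 236 and 261 CPM in the siCon libraries and 171 and 193 CPM in the siPrdx2 libraries, with a log2 fold change of -0.45 ± 0.0537 (edgeR adjusted p = 1.22e-05). HSPA1B (chromosome 6, 31795515 to 31798031, plus strand), its neighbour with a nearly identical coding sequence, was at 273 and 259 CPM in the siCon libraries and 206 and 210.1 CPM in the siPrdx2 libraries, with -0.36 ± 0.0386 (edgeR adjusted p = 3.98e-06). All siPrdx2 libraries lay below all siCon libraries in these 3 genes. How the reads were shared between HSPA1A and HSPA1B is uncertain, and their sum fell by 0.40 ± 0.0317 on the log2 scale (edgeR adjusted p = 8.8e-08). HSPA2 and HSPA14 were at -0.37 and -0.15, with edgeR adjusted p of 0.426 and 0.188, and HSPA2 had only 19 to 32 counts per library. Summed over the 5 genes, HSP70 transcripts went from 2149 and 2111 TPM to 1638 and 1630 TPM, a ratio of 0.767.

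HSPB1 (chromosome 7, 75931990 to 75933612, plus strand), an ATP-independent holder of unfolded proteins, was at 76.0 and 74.8 CPM in the siCon libraries and 50.9 and 56.9 CPM in the siPrdx2 libraries. Its groups did not overlap, and the log2 fold change was -0.49 ± 0.0623 (edgeR adjusted p = 2.74e-05). Among the 8 cytosolic J-domain genes, 1 fell and 1 rose. DNAJA1, a farnesylated partner of HSPA8 that also serves protein import into mitochondria, was at 194 and 182 CPM in the siCon libraries and 143 and 138 CPM in the siPrdx2 libraries, with a log2 fold change of -0.42 ± 0.0452 (edgeR adjusted p = 3.66e-06). DNAJB1, the partner with which inducible HSP70 dissolves aggregates, moved the other way. It was at 126 and 122 CPM in the siCon libraries and 142 and 139 CPM in the siPrdx2 libraries, with 0.18 ± 0.0456 (edgeR adjusted p = 0.00945). DNAJA4 was at 38.7 and 36.7 CPM in the siCon libraries and 34.7 and 32.4 CPM in the siPrdx2 libraries, with both siPrdx2 libraries below both siCon libraries, and did not pass at -0.17 ± 0.0759 (edgeR adjusted p = 0.147). The other 5 J-domain genes lay between -0.36 (DNAJB4) and 0.037 (DNAJB6) and did not pass either.

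**Figure D2:**
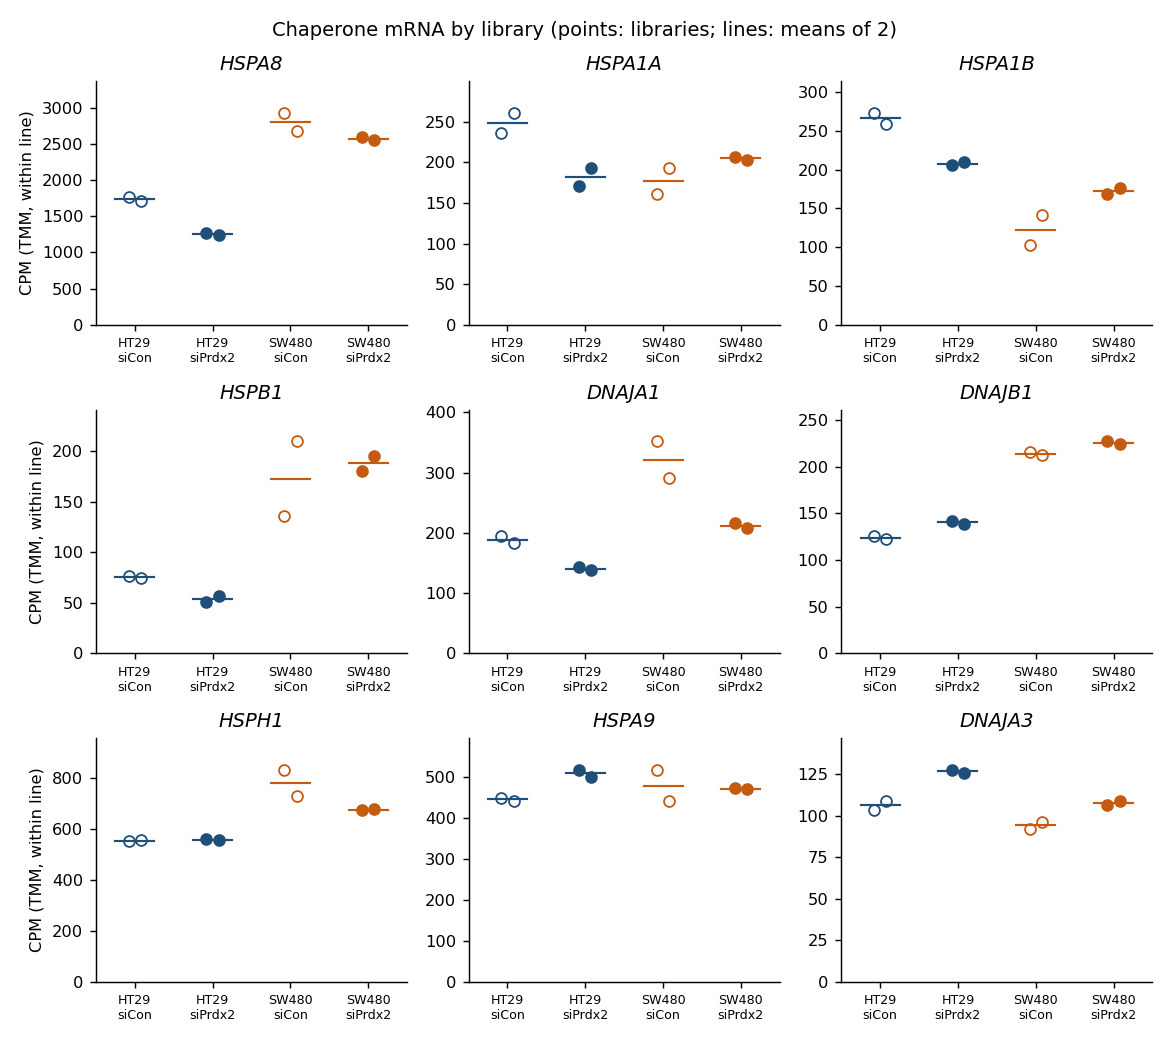
CPM (y axis, from 0, scaled within each line) of 9 genes in each library, open points for siCon and filled points for siPrdx2, lines for the mean of 2. In HT29 the siPrdx2 points of HSPA8, HSPA1A, HSPA1B, HSPB1 and DNAJA1 lie below both siCon points, those of DNAJB1, HSPA9 and DNAJA3 above them, and those of HSPH1 overlap with them. In SW480 the siCon points of HSPB1 at 135 and 209.7 CPM enclose both siPrdx2 points.

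The 3 HSP110 genes, whose products exchange the nucleotide of HSP70, did not pass the test. HSPH1 was at 552 and 557 CPM in the siCon libraries and 560.1 and 555 CPM in the siPrdx2 libraries, and the groups overlapped. Its log2 fold change was 0.0075, with a 95% interval of -0.044 to 0.059, and those of HSPA4 and HSPA4L were -0.0077 and 0.026 (edgeR adjusted p from 0.827 to 0.918 over the 3 genes). None of the 6 release factors (BAG1 to BAG5 and HSPBP1) passed the test either, with log2 fold changes from -0.084 to 0.064. Of these and the HSP110 genes, 9 in all, 0 had an unadjusted p under 0.05, without the share of all genes beside it. BAG3, which links HSP70 to autophagy and is a target of HSF1, was at 46.9 and 43.0 CPM in the siCon libraries and 41.1 and 43.9 CPM in the siPrdx2 libraries, and its groups overlapped. The heat shock factors themselves did not pass the edgeR test. HSF1 was at 114 and 114 CPM in the siCon libraries and 102 and 109.8 CPM in the siPrdx2 libraries, a log2 fold change of -0.11 ± 0.0502 (edgeR adjusted p = 0.167), with both siPrdx2 libraries below both siCon libraries. HSF2, a partner of HSF1 of lower abundance, was at 18.3 and 18.3 CPM in the siCon libraries and 21.8 and 22.8 CPM in the siPrdx2 libraries, with 0.29 ± 0.10 (edgeR adjusted p = 0.0563), and both siPrdx2 libraries above both siCon libraries. HSF2 was called in 5 of 10 alternative settings. It passed with the GC correction (edgeR adjusted p = 0.0456), with the replicate block (edgeR adjusted p = 0.0424) and on the log2(TPM + 1) scale (limma adjusted p = 0.0333). It did not pass with RLE factors (edgeR adjusted p = 0.0543) or without the filter (edgeR adjusted p = 0.0729). Nor did it pass with DESeq2 (adjusted p = 0.419) or with all 8 libraries in 1 fit (edgeR adjusted p = 0.498).

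All 7 genes of cytosolic HSP90 and its co-chaperones lay below 0, though 3 of 7 did on the log2(TPM + 1) scale, and 4 of them passed the edgeR test, by small amounts. HSP90AA1 was at 921 and 902 CPM in the siCon libraries and 873 and 838 CPM in the siPrdx2 libraries, a log2 fold change of -0.091 ± 0.0230 (edgeR adjusted p = 0.0105). HSP90AB1 was at 1508 and 1502 CPM in the siCon libraries and 1461 and 1451 CPM in the siPrdx2 libraries, with -0.048 ± 0.0161 (edgeR adjusted p = 0.0483), and this direction turned to 0.016 on the log2(TPM + 1) scale (limma adjusted p = 0.66). Of the 5 co-chaperones, 2 passed the test. FKBP4, a peptidyl-prolyl isomerase of steroid receptor complexes, was at 168 and 165 CPM in the siCon libraries and 145 and 150.1 CPM in the siPrdx2 libraries, with -0.18 ± 0.0429 (edgeR adjusted p = 0.00851). PTGES3 (p23), which stabilises the closed form of HSP90, was at 434 and 436 CPM in the siCon libraries and 393 and 381 CPM in the siPrdx2 libraries, with -0.17 ± 0.0288 (edgeR adjusted p = 0.000491). STIP1, AHSA1 and CHORDC1 were between -0.059 and -0.023 and did not pass. In TPM the 7 genes together had a ratio of 0.992 between siPrdx2 and siCon.

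The 7 TRiC/CCT subunit genes were likewise all below 0, from -0.10 to -0.0033, though 2 of 7 were on the log2(TPM + 1) scale, and 2 passed the edgeR test. CCT4 was at 337 and 340.5 CPM in the siCon libraries and 315 and 318 CPM in the siPrdx2 libraries, with a log2 fold change of -0.10 ± 0.0309 (edgeR adjusted p = 0.0387). TCP1, the first subunit of the ring, was at 328 and 318 CPM in the siCon libraries and 305 and 298 CPM in the siPrdx2 libraries, with -0.10 ± 0.0329 (edgeR adjusted p = 0.0483). The remaining 5 subunits (CCT2, CCT3, CCT5, CCT7 and CCT8) had edgeR adjusted p from 0.576 to 0.968. The summed TPM of the 7 subunits had a ratio of 1.02 between siPrdx2 and siCon, above 1 while every CPM difference was below 0.

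Mitochondrial chaperones moved in both directions. HSPA9 (mortalin), the motor that pulls proteins into the matrix, was at 449 and 441 CPM in the siCon libraries and 517 and 500.1 CPM in the siPrdx2 libraries, a log2 fold change of 0.19 ± 0.0278 (edgeR adjusted p = 9e-05). DNAJA3, its J-domain partner, was at 104 and 109 CPM in the siCon libraries and 128 and 126 CPM in the siPrdx2 libraries, with 0.26 ± 0.0481 (edgeR adjusted p = 0.00112). Both genes were higher in each siPrdx2 library than in each siCon library. HSPD1 (HSP60) was at 984 and 970.2 CPM in the siCon libraries and 985 and 962 CPM in the siPrdx2 libraries, and its interval of -0.047 to 0.038 around a log2 fold change of -0.0046 lay close to 0. HSPE1 (HSP10), the lid of the HSPD1 ring, was at 201 and 180.0 CPM in the siCon libraries and 168 and 168 CPM in the siPrdx2 libraries, with -0.18 ± 0.0484 (edgeR adjusted p = 0.0154), and its siCon duplicates differed by more than the lower of them differed from siPrdx2. The annotated spans of HSPD1 (chromosome 2, 198351308 to 198381461, minus strand) and HSPE1 (chromosome 2, 198364864 to 198368173, plus strand) overlap on opposite strands, and the library kit does not mark strand. Expected counts of HSPD1 were whole in every library (9589 and 9298 in HT29 siCon), so they show no reads split with another gene. Those of HSPE1 were not whole in some libraries (1955.92 and 1725.23 in HT29 siCon), where the overlapping HSPE1-MOB4 held 13.46 and 9.9. Whether reads of the overlap were assigned to the right gene was not tested. TRAP1, the mitochondrial HSP90, was at 227 and 232 CPM in the siCon libraries and 228 and 237 CPM in the siPrdx2 libraries, with 0.018 ± 0.0377 (edgeR adjusted p = 0.804).

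Of the 15 calls in HT29, 8 held in each of the 4 fits that left out 1 library (HSPA8, HSPA1A, HSPA1B, HSPB1, DNAJA1, PTGES3, HSPA9 and DNAJA3), HSP90AB1 and CCT4 lost theirs in all 4, and the lowest number called was 9, without siPrdx2 replicate 1. A fit without 1 library leaves 1 in its group and takes the spread from the other group alone. Calls that held there are therefore no measure of replication. With all 8 libraries in 1 fit, which takes the spread from both lines, HSPA8 kept its call (edgeR adjusted p = 0.00109) and the other 14 did not. The scale also bears on the split, since 44.1% of the genes called by edgeR were higher, against 69.6% of the 1800 called by limma on log2(TPM + 1), where 4 of the 44 were called higher and 5 lower.

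**Figure D3:**
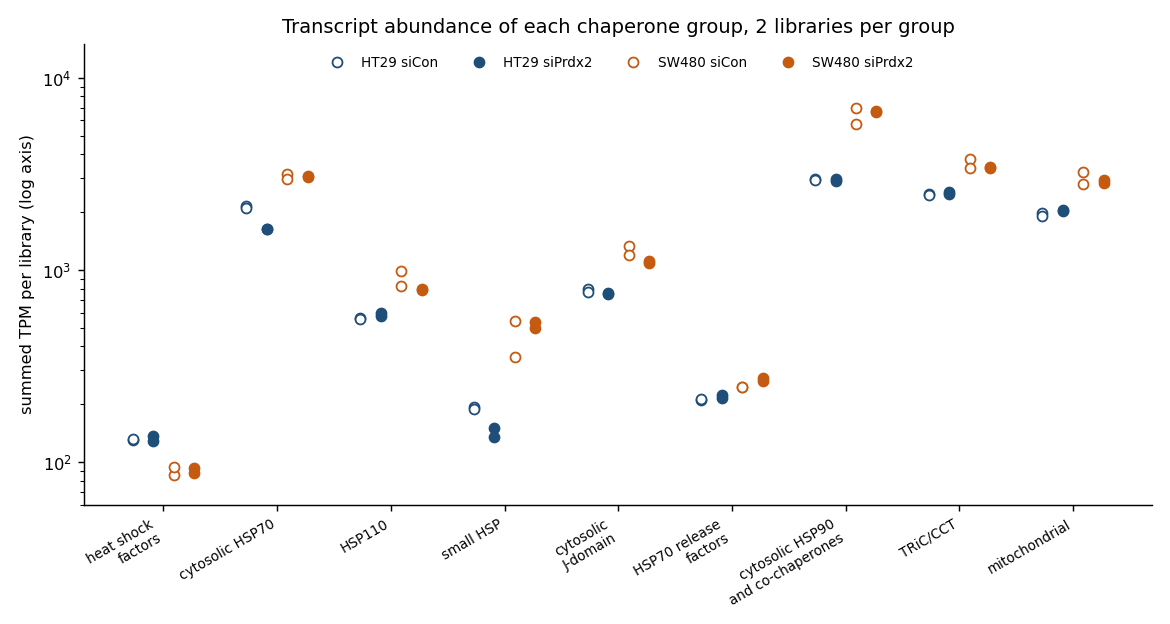
Summed TPM (y axis, log scale) of the 9 role groups in each library, open points for siCon and filled points for siPrdx2. The HT29 siPrdx2 points of cytosolic HSP70 (1638 and 1630) lie below the siCon points (2149 and 2111), and the SW480 points lie above the HT29 points in every group except the heat shock factors.

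In SW480 cells, 2 of the 44 genes passed the test, both of them J-domain genes and both lower. This was 4.55% of the 44, close to the 3.3% called among the 14112 genes tested (1.22% higher and 2.08% lower). DNAJA1 was at 352 and 291 CPM in the siCon libraries and 216 and 208 CPM in the siPrdx2 libraries, a log2 fold change of -0.60 ± 0.119 (edgeR adjusted p = 0.0346), or 34.1% less. DNAJA4, a related type of J-domain protein, was at 48.2 and 46.0 CPM in the siCon libraries and 33.3 and 30.3 CPM in the siPrdx2 libraries, with -0.57 ± 0.127 (edgeR adjusted p = 0.0486). The siPrdx2 libraries lay below the siCon libraries in both genes. Of the 44, 14 lay above 0 and 30 below 0 (19 and 25 on the log2(TPM + 1) scale), with a median of -0.14 against 0.0022 over all genes. At an unadjusted p under 0.05 the number was 12. The share of all genes at that p is not given here, so this number cannot be set beside the 3.3%.

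The genes that fell furthest in HT29 gave other values here. HSPA8 was at 2927 and 2675 CPM in the siCon libraries and 2587 and 2548 CPM in the siPrdx2 libraries, a log2 fold change of -0.13 ± 0.0699 (edgeR adjusted p = 0.295). HSPA1A was at 160.5 and 193 CPM in the siCon libraries and 207 and 203 CPM in the siPrdx2 libraries, with 0.21 ± 0.120 (edgeR adjusted p = 0.306). HSPA1B was at 103 and 142 CPM in the siCon libraries and 169 and 176 CPM in the siPrdx2 libraries, with 0.49 ± 0.149 (edgeR adjusted p = 0.0996). Both siPrdx2 libraries thus lay above both siCon libraries for HSPA1A and HSPA1B and below them for HSPA8, and none of the 3 passed the test. HSPB1 was at 135 and 209.7 CPM in the siCon libraries and 181 and 195 CPM in the siPrdx2 libraries, and its siCon libraries enclosed the siPrdx2 libraries. Its log2 fold change was 0.12, with a 95% interval of -0.29 to 0.53.

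DNAJB1 was at 216 and 213 CPM in the siCon libraries and 227 and 224 CPM in the siPrdx2 libraries, with a log2 fold change of 0.076 ± 0.101 (edgeR adjusted p = 0.666). The DNAJB6 and CHORDC1 genes came closest to the threshold, at -0.45 ± 0.107 (edgeR adjusted p = 0.057) and -0.59 ± 0.139 (edgeR adjusted p = 0.0566). DNAJB6 suppresses the aggregation of polyglutamine proteins and CHORDC1 is a co-chaperone of HSP90. HSP90AA1 was at 5570.0 and 4464 CPM in the siCon libraries and 5140.4 and 5100.4 CPM in the siPrdx2 libraries. HSP90AB1 was at 1666 and 1476 CPM in the siCon libraries and 1524 and 1509 CPM in the siPrdx2 libraries. In both HSP90 genes the siCon duplicates enclosed the siPrdx2 libraries. FKBP4 and PTGES3 were at 0.0025 and -0.22 (edgeR adjusted p = 0.99 and 0.317).

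The heat shock factors and the release factor BAG3 did not pass. HSF1 was at 57.2 and 74.1 CPM in the siCon libraries and 68.6 and 65.5 CPM in the siPrdx2 libraries, and its groups overlapped. HSF2 was at 29.8 and 20.9 CPM in the siCon libraries and 19.5 and 17.2 CPM in the siPrdx2 libraries, with a log2 fold change of -0.46 ± 0.195 (edgeR adjusted p = 0.186). BAG3 was at 45.4 and 54.1 CPM in the siCon libraries and 49.5 and 50.7 CPM in the siPrdx2 libraries, also with overlapping groups. The nucleotide exchange factor HSPH1 lay lower in both siPrdx2 libraries, at 832 and 731 CPM in the siCon libraries and 673 and 677 CPM in the siPrdx2 libraries, with -0.21 ± 0.0941 (edgeR adjusted p = 0.207). The 7 TRiC/CCT genes were all below 0, from -0.31 (CCT4) to -0.083 (CCT3), though 5 of 7 were on the log2(TPM + 1) scale. None passed with edgeR, while 1 had an unadjusted p under 0.05, given without the share of all genes at that p.

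The 5 mitochondrial chaperones gave no edgeR call in SW480, and 0 of them had an unadjusted p under 0.05, again without the share of all genes. HSPD1 was at 1754 and 1393 CPM in the siCon libraries and 1364 and 1317 CPM in the siPrdx2 libraries, a log2 fold change of -0.23 ± 0.107 (edgeR adjusted p = 0.22). HSPE1 was at 399 and 383 CPM in the siCon libraries and 356 and 346 CPM in the siPrdx2 libraries, with -0.15 ± 0.0952 (edgeR adjusted p = 0.34). Both genes were lower in each siPrdx2 library than in each siCon library. TRAP1 was at 163 and 197 CPM in the siCon libraries and 191 and 196 CPM in the siPrdx2 libraries, with its siPrdx2 libraries inside the range of the siCon libraries. HSPA9 and DNAJA3, which rose in HT29, were at -0.020 and 0.19 (edgeR adjusted p = 0.926 and 0.293).

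The SW480 siCon duplicates set the precision of all these values. Their difference over the 44 genes had a median size of 0.252 on the log2 scale and reached 0.702 (DNAJB4), against a median of 0.0405 between the HT29 siCon duplicates. Across all genes tested, the log2 fold change in SW480 went along with GC content (Spearman rho 0.53 across genes), against -0.059 in HT29. AT-rich transcripts of the 44 were lower and GC-rich transcripts higher in replicate 2, from DNAJB4 at 40.9% GC and -0.702 to HSPB1 at 65.4% GC and 0.632. With a correction for transcript GC content, 9 of the 44 genes passed the test, among 2194 of the 13450 genes tested, against 466 genes in all without it. HSPA1B, BAG1 and HSP90AA1 were higher, and HSF1, HSPA2, DNAJA1, DNAJA4, DNAJB6 and CHORDC1 lower. Of the 2194 genes 50.0% were higher, against 36.9% of those called without the correction. HSF1 then turned from 0.028 to -0.25 (edgeR adjusted p = 0.0381). Leaving out 1 siCon library left a single control, so the spread came from the closer siPrdx2 pair alone and calls there carry little weight. Without siCon replicate 1 or 2, HSPB1 lay at -0.16 or 0.47, HSPA1B at 0.28 or 0.73 and DNAJA1 at -0.46 or -0.74. limma on log2(TPM + 1) called none of the 44 and 214 genes in all, of which 58.9% were higher.

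**Figure D4:**
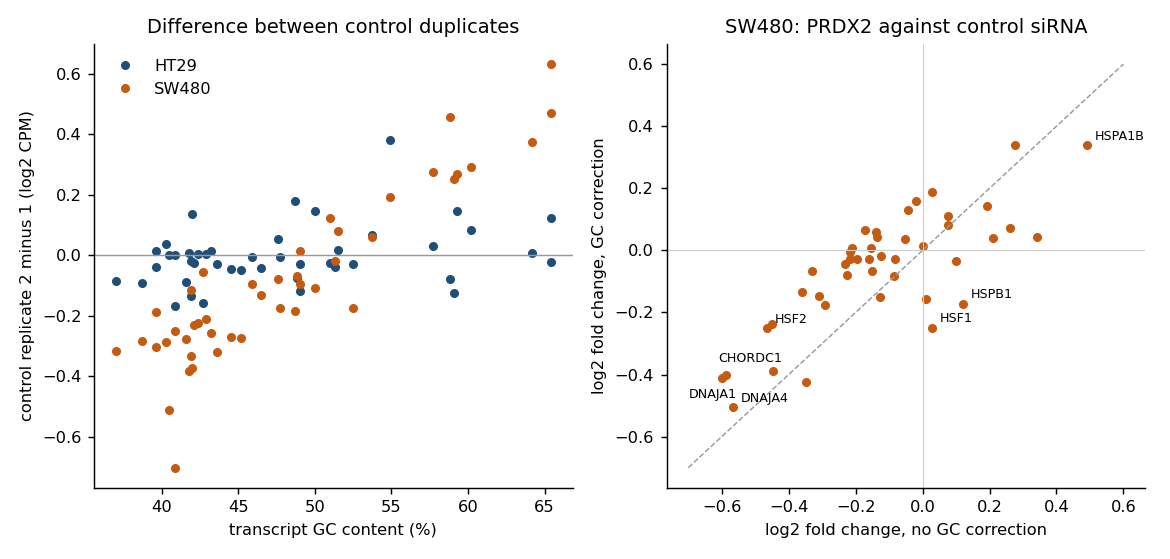
Left, difference between the siCon duplicates (replicate 2 minus 1, log2 CPM, y axis) against transcript GC content (%, x axis) for the 44 genes in HT29 and SW480, where the SW480 points run from -0.702 at 40.9% to 0.632 at 65.4%. Right, log2 fold change of the same genes in SW480 without (x axis) and with (y axis) GC correction. DNAJA1 and DNAJA4 stay lower, HSPA1B stays above 0 and HSF1 crosses 0, and the dashed line marks equal values.

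A single model over the 8 libraries tested whether the lines differed in their response. PRDX2 itself fell less in HT29 (-0.87) than in SW480 (-1.70), so line and depth of knockdown cannot be told apart. Of the 44 genes, 1 passed (2.27%), HSPA1B, against 1.12% of the 14772 genes tested (0.616% higher and 0.508% lower in HT29 than in SW480). Its effect in HT29 minus that in SW480 was -0.85 ± 0.164 (edgeR adjusted p = 0.0407) on the log2 scale, with the gene lower with siPrdx2 in HT29 and at a positive value in SW480. HSPA1A and HSPA8 lay just outside the threshold, at -0.66 ± 0.138 (edgeR adjusted p = 0.0502) and -0.34 ± 0.0719 (edgeR adjusted p = 0.0509). The sum of HSPA1A and HSPA1B gave -0.73 ± 0.135 (edgeR adjusted p = 0.0342). The call of HSPA1B held with RLE factors, without the filter, with DESeq2, with the replicate block and with the GC correction, and was lost with limma (adjusted p = 0.0725) and without any 1 of the HT29 libraries or of the SW480 siPrdx2 libraries (edgeR adjusted p from 0.198 to 0.241). Without SW480 siCon replicate 1 or 2 the difference for HSPA1B was -0.64 or -1.1, with a single SW480 control left.

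For the other genes of the response the difference between lines did not pass. HSPB1 was at -0.60 ± 0.227 (edgeR adjusted p = 0.19) and DNAJB6 at 0.49 ± 0.113 (edgeR adjusted p = 0.0681). DNAJA1 fell in both lines, and its difference of 0.18 had a 95% interval of -0.10 to 0.46. DNAJB1 had 0.11 (-0.10 to 0.32), and HSP90AB1 had 0.0048 (-0.17 to 0.18). HSF2, which was at a positive value in HT29 and a negative one in SW480, had 0.75 ± 0.226 (edgeR adjusted p = 0.123). For DNAJA1, DNAJB1 and HSP90AB1 the intervals include differences as large as the change in HT29 itself, so they do not show that the lines responded alike.

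Without knockdown, the summed TPM of the 44 genes was higher in SW480 than in HT29 cells, and the widest gaps in single genes were in HSPA2 and HSP90AA1. Of the 44 genes, 29 differed between the siCon libraries of the lines (65.9%), 22 higher and 7 lower in SW480, a share close to the 67.5% of the 14346 genes tested (35.7% higher and 31.8% lower). The median difference of the 44 genes was 0.36 on the log2 scale, against 0.045 over all genes. In bulk RNA, fewer cells with a transcript and less of it per cell cannot be told apart. The summed TPM in SW480 was 1.67 times that in HT29, 2.16 times for HSP90 and its co-chaperones and 0.684 times for the heat shock factors. A large part of the gap lay in HSP90AA1, at 587 TPM in HT29 and 3299 TPM in SW480, and HSPA8, at 1633 and 2693 TPM. TPM is a share of transcripts, so the amount of RNA per cell was not measured. The lines also differed in VIM, CDH1 and KRT20 as given above, and the part of such differences in these values was not tested.

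**Figure D5:**
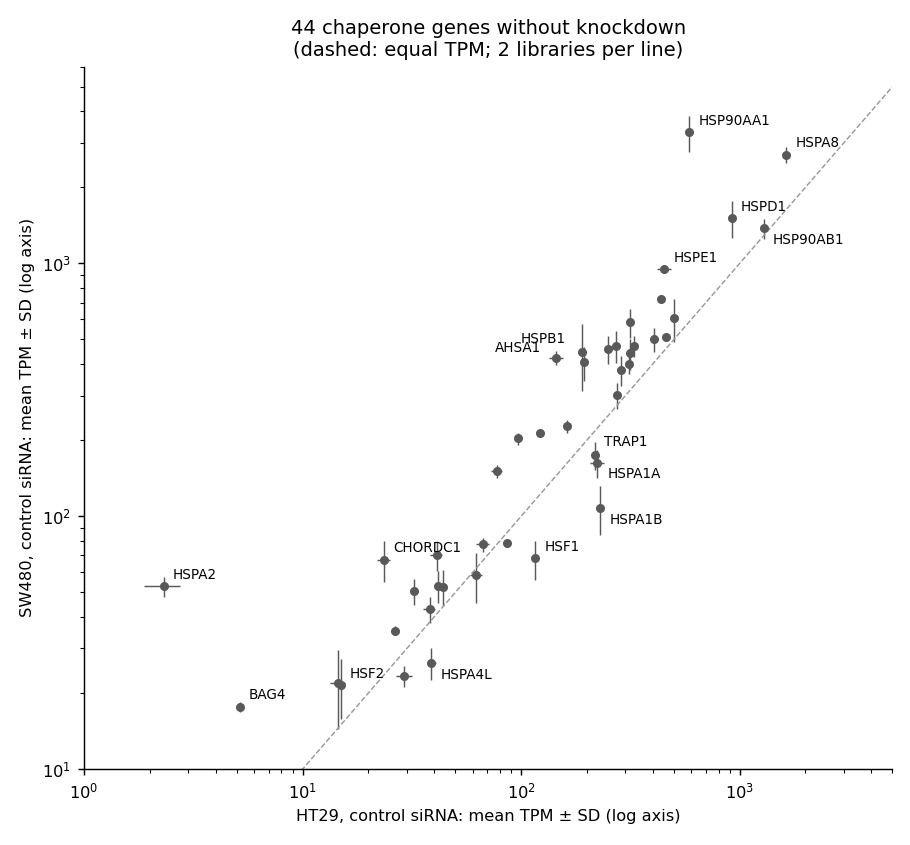
Mean TPM ± SD (2 siCon libraries per line) of the 44 genes in HT29 (x axis, log scale) and SW480 (y axis, log scale), with a dashed line at equal TPM. HSP90AA1 at 587 and 3299 TPM and HSPA2 at 2.32 and 52.8 TPM lie farthest above the line among the labelled genes, and HSPA1B and HSF1 lie below it.

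HSPA2 had the widest gap. Its 2.01 and 2.62 TPM in the HT29 siCon libraries compared with 49.5 and 56.1 TPM in SW480, 20.8-fold higher, with a log2 difference of 4.38 ± 0.188 (edgeR adjusted p = 2.33e-07). HSP90AA1 was at 593 and 581 TPM in HT29 and at 3677 and 2921 TPM in SW480, a log2 difference of 2.36 ± 0.11 (edgeR adjusted p = 3.72e-07). HSP90AB1 was at 1295 and 1289 TPM in HT29 against 1467 and 1287 TPM, and its log2 difference of -0.037 had a 95% interval of -0.23 to 0.16. The HSP90 activator AHSA1 and the co-chaperones CHORDC1 and FKBP4 were higher in SW480 by 1.41, 1.39 and 0.95. BAG4 differed by 1.64 and HSPB1 by 1.10.

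A smaller set was lower in SW480. HSPA1B differed by -1.22 ± 0.150 (edgeR adjusted p = 0.000121) and HSPA1A by -0.59 ± 0.121 (edgeR adjusted p = 0.00246), while HSPA8 was higher by 0.59 ± 0.0797 (edgeR adjusted p = 0.000205). HSF1 differed by -0.89 ± 0.139 (edgeR adjusted p = 0.000479). HSPA4L, BAG1, TRAP1 and DNAJA3 were the other 4, at -0.70, -0.45, -0.44 and -0.27. The mitochondrial chaperones thus split, with HSPD1 (0.59) and HSPE1 (0.94) higher, TRAP1 and DNAJA3 lower, and HSPA9 at 0.0046. Without SW480 siCon replicate 1 or 2, HSPA1B lay at -0.93 or -1.4 and HSF1 at -0.64 or -1.03, with a single SW480 library left. The call of DNAJA3 (edgeR adjusted p = 0.0473) was lost without either HT29 siCon library and with RLE factors, no filter, DESeq2, limma or the replicate block.

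The list of 84 further chaperone genes holds other small heat shock and J-domain genes, co-chaperones, prefoldin and mitochondrial folding genes. In HT29 72 of them were tested and 10 passed (13.9%, against 17.6% of all genes), 8 higher and 2 lower. The 3 rises with the smallest p were DNAJC12, DNAJC9 and DNAJC5, all J-domain genes. DNAJC12, a helper of aromatic amino acid hydroxylases, was at 4.51 and 4.28 CPM in the siCon libraries and 8.58 and 8.73 CPM in the siPrdx2 libraries, a log2 fold change of 0.97 ± 0.180 (edgeR adjusted p = 0.00102). DNAJC9, a histone chaperone, was at 50.9 and 50.9 CPM in the siCon libraries and 65.2 and 57.6 CPM in the siPrdx2 libraries, with 0.27 ± 0.0674 (edgeR adjusted p = 0.0088). DNAJC5, the cysteine string protein, was at 281 and 287 CPM in the siCon libraries and 303 and 317 CPM in the siPrdx2 libraries, with 0.13 ± 0.0345 (edgeR adjusted p = 0.0153). All 3 were higher in each siPrdx2 library than in each siCon library. The falls were CCT6A, a further subunit of TRiC/CCT, at 449 and 457 CPM in the siCon libraries and 403 and 411 CPM in the siPrdx2 libraries, with -0.16 ± 0.0281 (edgeR adjusted p = 0.000791), and AHSA2, a relative of AHSA1, at 35.3 and 38.3 CPM in the siCon libraries and 30.5 and 32.1 CPM in the siPrdx2 libraries, with -0.23 ± 0.0784 (edgeR adjusted p = 0.0483). In SW480 1 of 73 passed (1.37%, against 3.3% of all genes). It was again CCT6A, at 821 and 651 CPM in the siCon libraries and 459 and 441 CPM in the siPrdx2 libraries, with -0.71 ± 0.118 (edgeR adjusted p = 0.0198). Between the lines 1 of 74 passed, AHSA2 with -0.75 ± 0.140 (edgeR adjusted p = 0.035), and 44 of 74 differed between the siCon libraries, 22 in each direction, where 67.5% of all genes did.

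Set beside the promoter letters, 4 of the 7 genes with an exact heat shock element fell in HT29 (HSPA8, HSP90AA1, HSP90AB1 and DNAJA1) and none rose, where 9.82% of all genes fell. With limma on log2(TPM + 1) HSPA8 and DNAJA1 kept their calls, and HSP90AA1 (-0.026) and HSP90AB1 (0.016) did not. Of the 33 genes in the table without one, 7 fell and 3 rose, and the medians were -0.059 and -0.022. CHORDC1, with 3 overlapping matches, and HSPD1, with 2, did not pass in HT29, whereas HSPA8 and HSP90AB1, also with 2 exact matches each, did. In SW480 1 of the 7 (DNAJA1) and 1 of the 33 (DNAJA4) fell, where 2.08% of all genes did. These counts are a description of a few genes chosen by name and not matched for expression level, with no test.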

How the data were processed

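RNA from HT29 and SW480 colorectal cancer cells, transfected with a control siRNA or an siRNA against PRDX2, was sequenced with 2 libraries per group, and groups were taken from the sample labels. The authors aligned the reads with MapSplice and quantified genes with RSEM. The authors deposited 1 table per library with an expected count per gene, which need not be whole, and a TPM value, which is scaled by transcript length and sums to the same total in every library. The methods of the study describe this for HT29 cells, and the SW480 tables have the same form. The version of the genome annotation behind the counts was not given in the sources used here.

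Expected counts were rounded to whole numbers and tested with edgeR 4.0.16 (quasi-likelihood test, TMM factors, R 4.3.3) on all genes that reached 10 counts in 2 or more libraries of the fit, and p-values were adjusted by Benjamini-Hochberg over all genes tested, with a threshold of 0.05. Knockdown was tested within each line, its difference between the lines as an interaction over 8 libraries, and the lines against each other on the 4 siCon libraries. All p-values are two-sided. Depth was 8857442 to 10164137 expected counts per library, and limits from counts cover counting error only. Alternatives were RLE factors, no filter, DESeq2 1.42.0, limma 3.58.1 on log2 TPM with a pseudocount of 1 or of 0.1, the replicate number as a block, an offset for transcript GC content (loess, span 0.5), both together, HSPA1A and HSPA1B summed, all 8 libraries in 1 fit, and each library left out. GC content was matched for 82.2% of the symbols, 95% or more of the genes tested and all 44 members.

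The members and all gene lists were chosen with earlier results of these data known. Values of every library are given for the heat shock factors and 12 other central genes, and for each member past the threshold whose siPrdx2 libraries both lay beyond both siCon libraries. Of the list of 84 further genes, at most 3 rises and 3 falls with the smallest p are named per line. A few other members are given by their fold change, to fill small groups or because they lay close to the threshold, and were picked after their values were seen. Gene positions are from the GENCODE annotation lifted to GRCh37, and promoter letters are from RefSeq on GRCh38.p14. A heat shock element was counted on either strand.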

Additional observations from a re-analysis of the deposited data

Results flagged for a closer look

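HSPA1B, a stress-inducible HSP70 gene, is listed here because its response to siPrdx2 differed between the lines in the interaction test. Its log2 fold change was -0.36 in HT29 and 0.49 in SW480, a difference of -0.85 (edgeR adjusted p = 0.0407). The adjusted p of the summed HSPA1A and HSPA1B counts, which does not depend on how reads were shared between these near-identical genes, was 0.0342. The SW480 siCon libraries, on which the SW480 value rests, lay at 103 and 142 CPM and differed along GC content. With the GC correction the difference between the lines was -0.70 (edgeR adjusted p = 0.000511).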

How the results depend on the processing

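Of the 44 genes, 15 were called in HT29, against 8 with DESeq2, 9 with limma at either pseudocount, 1 with all 8 libraries in 1 fit and 9 to 13 with 1 library left out. In SW480 2 were called, against 1 without the filter, 5 with DESeq2, 0 with limma at either pseudocount, 9 with the GC correction with or without the block, 10 with all 8 libraries in 1 fit and 0 to 36 with 1 library left out. For the difference between the lines 1 was called, against 2 with RLE factors, 3 without the filter, 4 with DESeq2, 0 with limma, 5 with the GC correction with or without the block and 0 to 30 with 1 library left out. With the replicate number as a block the numbers were 17 in HT29, 7 in SW480, 2 between the lines and 30 at baseline; replicate numbers were shared by 2 pairs per line only, whose deviations correlated by 0.103 in HT29 and 0.114 in SW480, and were not shown to pair the samples. At baseline 29 were called and 28 to 37 under the other settings, or 21 to 43 with 1 library left out.

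Counting the genes of the 44 that passed the test with or without the change of setting, directions turned for HSP90AB1 in HT29 with limma (0.016 at either pseudocount), for HSF1 in SW480 with the GC correction with or without the block (-0.25 in both), for HSP90AA1 in SW480 among fits with 1 library left out (-0.13 to 0.20, the former without siCon replicate 2) and for HSP90AB1 at baseline likewise (-0.071 to 0.11, the latter without SW480 siCon replicate 2). Genes called in neither fit also changed sign, such as HSPB1 in SW480 from 0.12 to -0.17 with the GC correction. The cause was not tested.

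Over all genes, HT29 had 2279 calls, against 871 with DESeq2 and 185 with all 8 libraries in 1 fit. In the settings listed here, the numbers over all genes rose or fell along with those of the 44 genes above. SW480 had 466, against 214 and 177 with limma, 1727 with the block, 2194 with the GC correction, 3028 with both, 2415 with all 8 libraries and 87 to 7364 with 1 library left out. The difference between the lines had 166, against 267 without the filter, 311 with DESeq2, 103 and 43 with limma, 889 with the GC correction, 854 with both and 6 to 5237 with 1 library left out; 54.8% of the 166 were higher, against 42.7% with limma on log2(TPM + 1) and 42.4% with the GC correction. The baseline median of all genes was 0.045, and 0.15 on the log2(TPM + 1) scale, where the median of the 44 was 0.48.

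Of the 15 calls in HT29, 8 held with any 1 library left out and 1, HSPA8, under every other setting; at baseline 21 and 26 of the 29 did. A fit with 1 library left out has a single library in that group and no spread there, so its count of calls is no measure of robustness. With 2 libraries per group and a wide spread between the SW480 siCon libraries, small differences in SW480 were not detectable.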
